A study of Arabidopsis thaliana with 24 samples.

Results

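The 2 h response of wild-type Arabidopsis hypocotyls to the synthetic auxin picloram was read from 6 of the 24 samples of the series, 3 picloram-treated and 3 DMSO-treated, across 30361 transcripts on a NimbleGen 4-plex chip annotated on TAIR8. The samples were chosen by their labels (genotype, treatment and time) and by the chip, and no measured value entered the choice. All 6 were Columbia (Col-0) wild type. Seedlings were grown in long days for 5 days on mesh, moved 2 h after lights-on to 5 µM picloram or to DMSO, and held there for 2 h before the hypocotyls were dissected over at most 30 min. About 400 dissected hypocotyls were pooled into each replicate over several collection days, and the mRNA was amplified before labelling. Picloram samples carried Cy3 and DMSO samples carried Cy5 in a dual-colour hybridisation, so treatment and dye cannot be told apart in these 6 samples. The same chip carried 6 further wild-type samples treated for 30 min, labelled in the same dye order. A second experiment, on a single-colour 12-plex chip with unamplified RNA from about 700 hypocotyls a replicate, held picloram- and DMSO-treated wild type at 2 h, all in Cy3, and the mutant *afb5-5*, whose response is not described here. All levels below are log2 intensities after quantile normalisation of the 12 samples of the dual-colour experiment, and all changes are picloram minus DMSO on that log2 scale with a standard error (SE) from limma.

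Auxin is perceived by the TIR1/AFB F-box proteins, which bind the hormone together with Aux/IAA repressors and send these repressors to degradation. Their loss frees the auxin response factors (ARFs) on the promoters of early auxin genes, among them the *Aux/IAA*, *SAUR* and *GH3* families. Picloram is a picolinate auxin read by the same receptor family, with AFB5 as a main receptor. The hypocotyl, the stem between root and cotyledons, lengthens almost wholly by cell expansion, which needs a looser wall, new wall polymers and the hormones gibberellin and brassinosteroid beside auxin.

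The 6 samples were close to each other in scale and in rank. The median deposited intensity was 1116, 1056 and 1034 in picloram replicates 1 to 3 and 1023, 1036 and 1235 in DMSO replicates 1 to 3, a span of 1.21-fold over these 6 and 1.72-fold over all 12. Pearson correlations between the normalised samples at 2 h ran between 0.969 and 0.991, and picloram 3 correlated more with DMSO 3 (0.983) than with picloram 2 (0.980). Samples of the same replicate number deviated together from their group means, so part of the spread inside each group was shared by numbered pairs. Epidermis markers (median level at percentile 96.6 of the chip) and chlorophyll-bearing cell markers (percentile 99.6) were bright, and all 6 pollen markers lay below percentile 25. Both *GL2* and *ATML1*, of 6 epidermis markers, 1 of 10 guard cell markers (*KAT1*) and 1 of 9 seed storage markers (*SESA4*) were higher with picloram, and 1 of 10 shoot apex markers (*CUC3*) was lower. None of the 7 root hair, 10 root tip, 6 xylem or 7 phloem markers passed the test, while 2 xylem and 1 root tip markers rose in a fit with a replicate block within each time point, where 2 guard cell and 2 seed storage markers rose and 1 marker of chlorophyll-bearing cells fell. The summed linear levels of 4 of the 10 marker lists did not overlap between treatments. Those of the xylem markers were 65250 to 66760 in the picloram samples and 44030 to 54440 in the DMSO samples, and those of the phloem markers were 39950 to 46810 with picloram and 31850 to 37220 with DMSO. The guard cell markers summed to 11420 to 13050 with picloram and 8991 to 10290 with DMSO, and the epidermis markers to 197600 to 207000 with picloram and 173200 to 196000 with DMSO. The part of these differences in other results was not tested. Nothing is read from the count of lists, as many single transcripts did not overlap either. Of all 30361 transcripts, 5245 were higher in every picloram sample than in every DMSO sample, and 5737 were lower.

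Among the 7 root hair markers, *EXPA7* and *EXPA18* set some libraries apart. *EXPA7*, a root hair expansin, stood at 11.47, 11.31 and 9.03 in picloram-treated hypocotyls and at 7.40, 6.91 and 9.51 in DMSO-treated ones (adjusted p = 0.0503). *EXPA18*, of the same kind, stood at 11.25, 11.42 and 7.92 with picloram and 6.61, 6.84 and 9.32 with DMSO. Both were thus high in picloram 1, picloram 2 and DMSO 3, and both groups overlapped. The summed linear level of the 7 root hair markers ran over 1199 to 6944 in the picloram samples and 709 to 2046 in the DMSO samples. The part of these root hair levels in other results was not tested, and in bulk samples fewer cells of a type and less RNA per cell cannot be told apart.

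**Figure D1:**
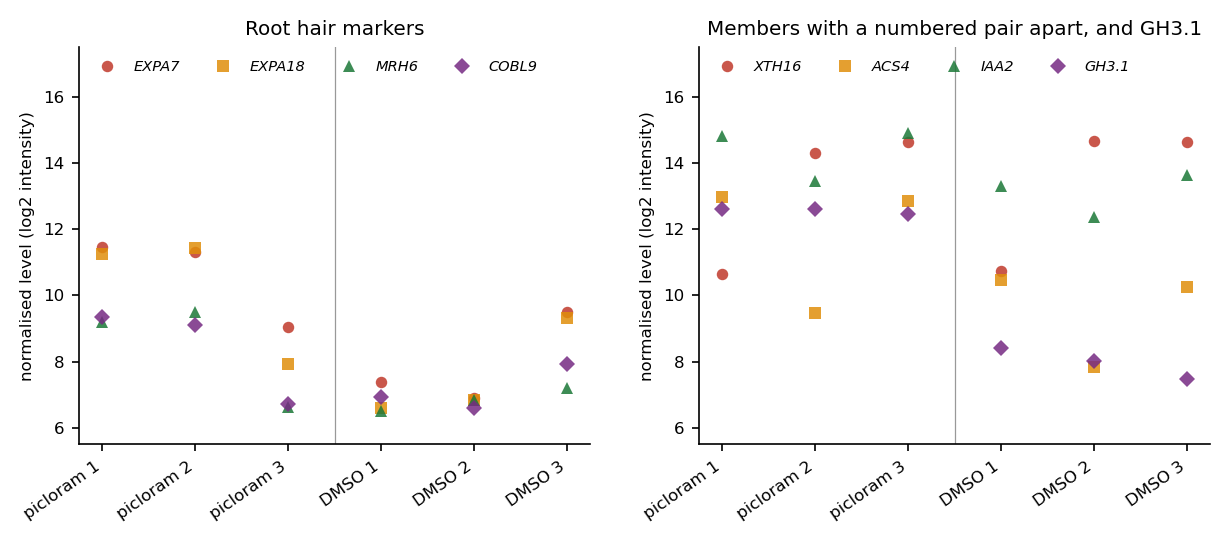
Normalised level (log2 intensity, y axis) in each of the 6 samples (x axis, 3 picloram then 3 DMSO); points are single samples. Left, 4 of the 7 root hair markers, of which *EXPA7* and *EXPA18* were high in picloram 1, picloram 2 and DMSO 3. The markers *RHD6*, *RSL4* and *LRX1* are not drawn. Right, *XTH16*, *ACS4* and *IAA2*, whose numbered pairs stand apart from the other samples, and *GH3.1*, which separates the treatments by about 4.59 log2 units.

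Picloram moved many transcripts in both directions. At an adjusted p under 0.05 (Benjamini-Hochberg over all 30361 transcripts), 1678 transcripts were induced, 5.53% of those tested, and 1772 were repressed, 5.84%. With each sample's median subtracted in place of quantile normalisation, 1867 were induced and 1293 repressed. The total of 3450 fell by more than 1.5 times when a first or second replicate of either treatment was left out, to 1575 without DMSO 1, 1472 without DMSO 2, 1450 without picloram 1 and 1470 without picloram 2, and a replicate block within each time point raised it to 5716. The median change over all transcripts was -0.01, and the changes ran between -2.93 and 4.77. Induced transcripts had a median change of 0.94, with 733 changed at least 2-fold and 105 at least 4-fold. Repressed ones had a median of -0.87, with 635 changed at least 2-fold and 31 at least 4-fold. The 3 picloram and 3 DMSO values did not overlap in 1676 of the induced and 1769 of the repressed transcripts. Over all 30361 transcripts, 5245 were higher and 5737 lower with picloram without overlap. The test itself favours separated groups, so nothing is read from these counts. Calls were more frequent among bright transcripts, at 1.96% of the dimmest 6073 and 20.5% of the brightest 6072.

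**Figure D2:**
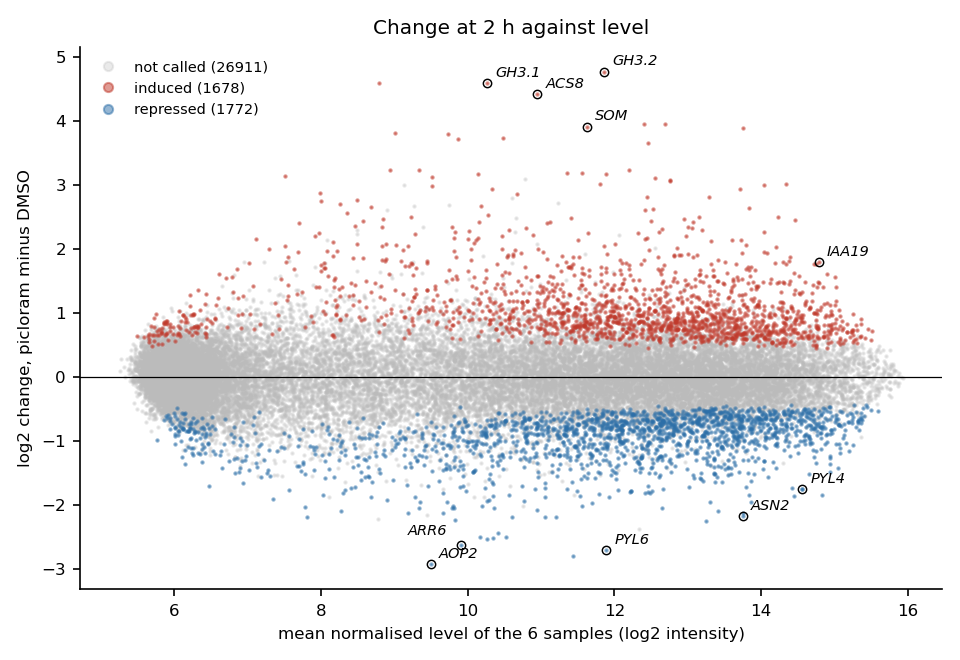
Log2 change, picloram minus DMSO at 2 h (y axis), against the mean log2 level over the samples (x axis) for all 30361 transcripts. Coloured points passed the test (1678 induced, 1772 repressed), and the named points are members discussed in the text.

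The largest inductions were of auxin-conjugating enzymes and of genes of ethylene, gibberellin and abscisic acid metabolism. *GH3.2*, also called *BRU6* or *YDK1* and encoding an enzyme that joins auxin to amino acids, stood at 14.19, 14.26 and 14.28 with picloram and 9.15, 9.27 and 10.02 with DMSO, a change of 4.77 (SE 0.47, adjusted p = 0.000325) or 27.2-fold. *NCED5*, of the first committed step of abscisic acid synthesis, was at 10.95, 11.18 and 11.13 with picloram and 6.50, 6.87 and 6.13 with DMSO, a change of 4.59 (SE 0.41, adjusted p = 0.000268). The picloram samples of both genes lay close together, and every one of them was far above every DMSO sample. *GA2OX8*, a gibberellin-inactivating oxidase, was at 14.59, 14.80 and 14.58 with picloram and 10.24, 10.86 and 11.03 with DMSO, a change of 3.95 (SE 0.43, adjusted p = 0.000561). *SOM* (SOMNUS), a CCCH zinc finger protein known as a repressor of light-dependent seed germination, was at 13.56, 13.62 and 13.55 with picloram and 9.77, 9.69 and 9.56 with DMSO, a change of 3.91 (SE 0.27, adjusted p = 0.000113). The other 11 of the 15 largest inductions were *GH3.1* and *ACS8*, given below, *SAUR10*, *SAUR35*, the lateral organ boundaries factor *LBD29*, the ethylene receptor *ERS2*, the cytochrome P450 *CYP78A10*, the clade D protein phosphatase AT5G02760 and the loci AT3G49980, AT1G23070 and AT2G39980, for which no name is given here. These 11 changed by between 3.23 and 4.59.

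The largest repressions were smaller than the largest inductions. *AOP2*, of a gene family that acts on glucosinolate side chains, was at 7.89, 8.07 and 8.12 in picloram-treated hypocotyls and 10.92, 11.25 and 10.71 in DMSO-treated ones, a change of -2.93 (SE 0.27, adjusted p = 0.000274). *TINY*, an AP2/ERF transcription factor, was at 9.84, 9.93 and 10.32 with picloram and 12.85, 12.90 and 12.74 with DMSO, a change of -2.80 (SE 0.40, adjusted p = 0.00198). *ORA59*, an AP2/ERF factor of jasmonate and ethylene defence, was at 9.24, 9.12 and 8.91 with picloram and 11.96, 11.73 and 11.15 with DMSO, a change of -2.52 (SE 0.27, adjusted p = 0.000561). In all 3 genes each picloram sample was below each DMSO sample. The other 12 were *PYL6*, *ARR6*, *TPPB* and *BBX14*, given below, the glutaredoxin *GRXS13*, the MADS-box factor *AGL49* and the loci AT5G57510, AT1G58460, AT3G01260, AT1G72416, AT1G47400 and AT4G10600, with changes between -2.71 and -2.18. AT1G58460 lost its call without DMSO 2, picloram 1 or picloram 2 (adjusted p between 0.0514 and 0.0582).

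**Figure D3:**
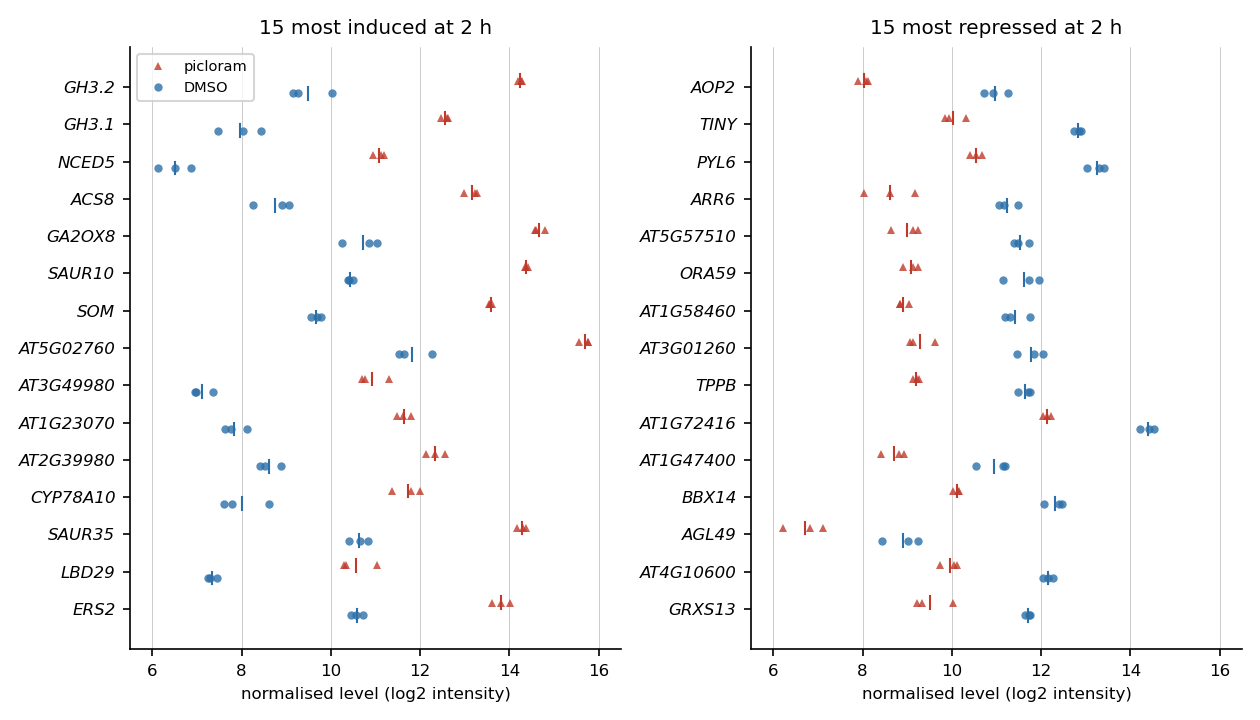
Normalised level (log2 intensity, x axis) of the 15 most induced (left) and 15 most repressed (right) transcripts with non-overlapping groups; each triangle (picloram) or circle (DMSO) is 1 sample and each tick a group mean. The picloram points of *GH3.2* lie at 14.19 to 14.28 and its DMSO points at 9.15 to 10.02, and those of *AOP2* lie at 7.89 to 8.12 and 10.71 to 11.25.

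Gene groups are described below by how many members rose or fell, beside 5.53% induced and 5.84% repressed over all transcripts, and by their median change, beside -0.01 over all transcripts. The share of called members in each group is shown in the plot of groups.

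**Figure D4:**
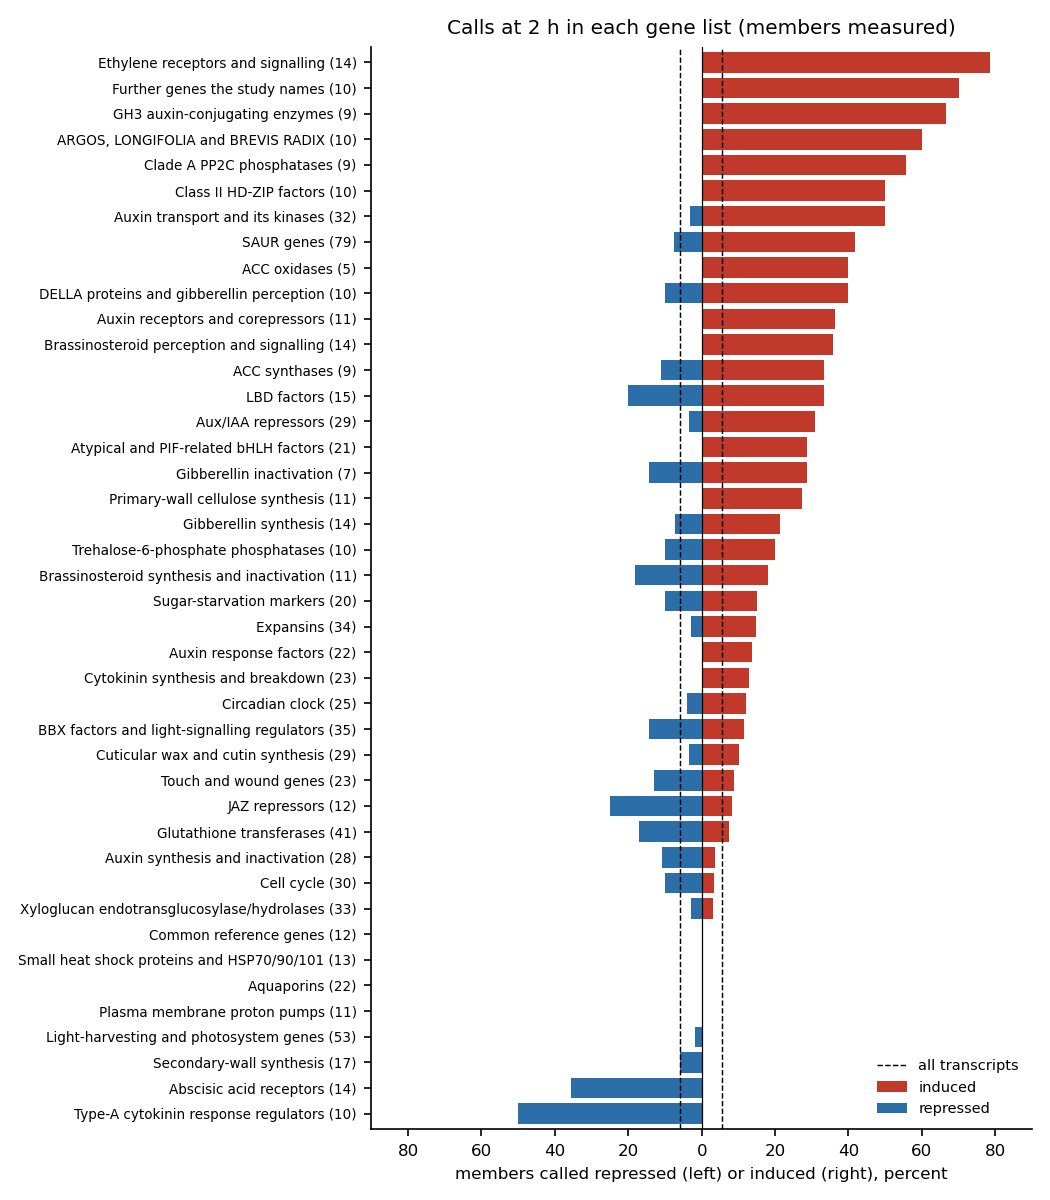
Percent of each gene group's members induced (bars to the right) and repressed (bars to the left) at 2 h; the dashed lines mark the shares over all transcripts, 5.53% and 5.84%. The ethylene receptor and signalling group reaches 78.6% induced (11 of 14), and type-A response regulators reach 50% repressed (5 of 10).

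Of the 9 *GH3* conjugating enzymes, 6 rose, none fell, and the median change was 2.94. *GH3.1* was at 12.62, 12.61 and 12.46 with picloram and 8.43, 8.02 and 7.47 with DMSO, a change of 4.59 (SE 0.33, adjusted p = 0.000114). *GH3.3* was at 15.95, 15.77 and 15.81 with picloram and 12.79, 12.60 and 13.10 with DMSO, a change of 3.01 (SE 0.59, adjusted p = 0.00963). *GH3.5* and *GH3.6* changed by 3.00 and 2.94. The groups of these genes were well separated. *GH3.4* was at 9.15, 9.01 and 10.78 with picloram and 6.82, 6.80 and 8.25 with DMSO, with replicate 3 the highest sample of both groups, and changed by 2.36 (SE 0.55, adjusted p = 0.0202). It was not called without DMSO 1, DMSO 2 or picloram 3. *GH3.17*, *GH3.9* and *GH3.10* did not pass the test, with changes of 0.38, 0.43 and 0.61.

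Of the 29 *Aux/IAA* repressors, 9 rose and 1 fell, with a median change of 0.72. *IAA5* was at 13.89, 13.90 and 13.77 in picloram-treated hypocotyls and 10.95, 10.63 and 11.56 in DMSO-treated ones, a change of 2.81 (SE 0.48, adjusted p = 0.00494). *IAA1* was at 14.32, 14.34 and 14.36 with picloram and 11.71, 12.18 and 12.25 with DMSO, a change of 2.29 (SE 0.28, adjusted p = 0.00101). *IAA30* changed by 2.05, *IAA32* by 1.87, *IAA19*, a growth-linked member, by 1.79, and *IAA7* by 0.76. *IAA33*, an atypical member, was the 1 that fell, by 0.79. *IAA2* was at 14.80, 13.45 and 14.89 with picloram and 13.31, 12.38 and 13.63 with DMSO. Its replicate 2 was low in both groups, which made the groups overlap (adjusted p = 0.111, and 0.0188 with the replicate block within each time point). With that block 15 members rose, while 5 rose without DMSO 2 and 5 without picloram 1, and *IAA33* lost its call without any of DMSO 1, DMSO 2 or the 3 picloram samples.

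The small auxin upregulated RNA (*SAUR*) genes, whose short-lived proteins promote cell expansion, were the largest auxin family on the chip. Of 79 members, 33 rose and 6 fell, and the median change was 0.44. *SAUR10* (AT2G18010) was at 14.37, 14.41 and 14.35 with picloram and 10.38, 10.41 and 10.50 with DMSO, a change of 3.94 (SE 0.44, adjusted p = 0.000618). *SAUR35* (AT4G12410) was at 14.17, 14.30 and 14.37 with picloram and 10.65, 10.83 and 10.41 with DMSO, a change of 3.65 (SE 0.19, adjusted p = 1.78e-05). Both were tight within each treatment. *SAUR34* changed by 3.12 and *SAUR9* by 2.42. The members numbered 19 to 24 on chromosome 5 and 61 to 68 on chromosome 1 lie beside each other and are close copies, so probes may not separate them, and the called members of these runs changed by between 1.38 and 2.26.

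The 6 *SAUR* genes that fell were *SAUR59* (-1.40), *SAUR41* (-1.32), *SAUR72* (-1.3), *SAUR31* (-0.91), *SAUR32* (-0.82) and *SAUR78* (-0.73). *SAUR59* was at 9.81, 9.63 and 10.76 with picloram and 11.45, 11.36 and 11.60 with DMSO, so the 2 groups did not overlap. None of the 6 kept its call without DMSO 1 or without picloram 1, and 1 member fell without DMSO 2 and 1 without picloram 2. The count of members that rose lay between 26 and 29 when any 1 sample was left out.

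Genes of auxin perception were mostly uncalled, though more often induced than transcripts in all. Of 11 loci matched by the names of receptors and TOPLESS-family corepressors, 4 rose (36.4%, beside 5.53%) and none fell. The locus matched to the name *TPR4*, AT1G04530 (-0.36, adjusted p = 0.255), is a tetratricopeptide repeat gene and not a corepressor of this family. The corepressor *TPR3* was at 10.68, 10.85 and 10.62 with picloram and 9.49, 9.80 and 9.45 with DMSO, a change of 1.14 (SE 0.20, adjusted p = 0.00568). *TPR2* (0.92) and *TPR1* (0.73), of the same family, and the receptor *AFB1* (0.80) were the others. A single member (1) passed without DMSO 2 or without picloram 1, and 2 passed without DMSO 1 or picloram 2. *AFB5* was at 13.97, 13.97 and 13.43 with picloram and 14.26, 14.03 and 14.20 with DMSO, a change of -0.38 (SE 0.20, adjusted p = 0.258), and *TIR1* changed by 0.40 (adjusted p = 0.157).

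Of 22 loci matched by the names of ARFs, the transcription factors that the repressors hold back, 3 rose and none fell. The locus matched to the name *ARF3*, AT2G24765 (-0.32, adjusted p = 0.247), is an ADP-ribosylation factor and not an auxin response factor. *ARF6* was at 12.46, 12.71 and 11.54 in picloram-treated hypocotyls and 10.77, 10.50 and 10.32 in DMSO-treated ones, a change of 1.71 (SE 0.40, adjusted p = 0.0195). *ARF19* changed by 1.39 and *ARF16* by 1.07, and *ARF7*, which acts with *ARF19* in hypocotyl growth responses, changed by 0.41 (adjusted p = 0.307). None of the 22 passed without DMSO 2 or without picloram 2, 1 passed without DMSO 3, and 7 rose with the replicate block within each time point.

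Of 32 auxin transport genes, 16 rose and 1 fell, and the median change was 0.65. *PIN3*, an auxin efflux carrier of hypocotyl endodermis and tropic bending, was at 13.90, 14.21 and 14.12 with picloram and 12.02, 11.59 and 12.01 with DMSO, a change of 2.21 (SE 0.18, adjusted p = 0.000157). The efflux carriers *PIN4* (1.3), *PIN2* (1.14) and *PIN7* (1.07), the ABC transporters *ABCB1* (1.87), *ABCB4* (0.87) and *ABCB19* (0.87), and the influx carriers *LAX2* (1.11) and *AUX1* (0.54) also rose. So did kinases that act on PIN proteins. *PID* was at 12.90, 13.16 and 12.97 with picloram and 11.44, 11.59 and 11.48 with DMSO, a change of 1.51 (SE 0.16, adjusted p = 0.00051). *D6PKL3* (1.60), *WAG2* (1.36) and *PID2* (1.28) were of this kind too, and *PILS5* (0.61) and the PID-binding *TCH3* (0.57) rose as well. *PILS2*, an endoplasmic reticulum carrier, was the member that fell (-0.79). Only 10 members passed as induced without DMSO 2 and 10 without picloram 1.

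Auxin synthesis and inactivation genes ran the other way in part. Of 28, 1 rose and 3 fell, and the median change was -0.35. *YUC3*, a flavin monooxygenase of auxin synthesis, was at 12.17, 12.10 and 11.72 with picloram and 9.85, 10.09 and 10.54 with DMSO, a change of 1.83 (SE 0.41, adjusted p = 0.0173). Its family members *YUC4* (-1.41) and *YUC2* (-1.39) fell, and both were dim, at or below 8.60 in all 6 samples. The nitrilase *NIT3* fell by 0.78. No member passed as repressed without DMSO 2 or picloram 1, 1 did without DMSO 1, picloram 2 or picloram 3, and 6 fell with the replicate block within each time point. *YUC3* lost its call without DMSO 1, DMSO 2, picloram 1 or picloram 2 (adjusted p between 0.0631 and 0.0715).

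Transcription factor families downstream of auxin included strong responders. Of 15 lateral organ boundaries (LBD) factors, 5 rose and 3 fell. *LBD29*, a factor of lateral root initiation, was at 10.30, 10.34 and 11.03 with picloram and 7.24, 7.28 and 7.46 with DMSO, a change of 3.23 (SE 0.25, adjusted p = 0.000113). *LBD17* (2.66), *LBD16* (1.77), *LBD18* (1.57) and *LBD33* (1.55) rose with it, and *LBD16* and *LBD18* also act in lateral root formation. *LBD25* (-1.91), *LBD3* (-1.22) and *LBD37* (-0.82), the last known for nitrogen-responsive control, fell. Of 10 class II HD-ZIP factors, known from shade responses, 5 rose and none fell. *HAT2* was at 14.52, 14.45 and 14.25 with picloram and 11.99, 12.01 and 11.74 with DMSO, a change of 2.49 (SE 0.39, adjusted p = 0.00344). *ATHB18* (1.09), *ATHB17* (0.98), *HAT3* (0.97) and *HAT1* (0.74) were the others, with 2 members called without DMSO 1 or without picloram 2 and 3 without DMSO 3, picloram 1 or picloram 3.

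Among 21 atypical and PIF-related bHLH factors, which promote or restrain elongation, 6 rose, none fell and the median change was 0.75. *PRE6* was at 15.21, 15.24 and 15 in picloram-treated hypocotyls and 12.47, 12.49 and 12.61 in DMSO-treated ones, a change of 2.63 (SE 0.49, adjusted p = 0.00737). *P1R3* was at 12.55, 12.68 and 12.71 with picloram and 10.19, 10.38 and 9.94 with DMSO, a change of 2.48 (SE 0.19, adjusted p = 0.000113). *PIF6* (1.89), *PRE5* (1.75), *PIF3* (1.22) and *PAR1* (1.00) also rose. *PIF4*, a main promoter of hypocotyl elongation, was at 14.74, 14.70 and 14.43 with picloram and 14.46, 14.50 and 14.49 with DMSO, which overlapped (change 0.14, adjusted p = 0.668). *PIF1* changed by 0.05 (adjusted p = 0.916), which became -0.05 without DMSO 2 and -0.03 without picloram 2. With the replicate block within each time point 11 members rose, among them *PAR2* (adjusted p = 0.0272 there, 0.202 without the block).

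Some genes of gibberellin metabolism rose and some fell, on both the synthesis and the inactivation side. Of 14 synthesis genes, 3 rose and 1 fell. *GA20OX2* was at 13.40, 13.39 and 13.55 with picloram and 11.19, 11.41 and 11.01 with DMSO, a change of 2.24 (SE 0.33, adjusted p = 0.0024). *GA20OX1* (2.15) of the same step and *GA3OX1* (2.06), which makes the active hormone, were separated as clearly. All 3 stayed called when any 1 sample was left out. *GA3*, an early oxidase, fell by 0.77 (adjusted p = 0.0493) and lost this call without any 1 of the 6 samples. Of 7 GA 2-oxidases, which inactivate gibberellin, *GA2OX8* and *GA2OX1* (1.3) rose and *GA2OX2* (-0.96) fell, and only *GA2OX8* stayed called whichever sample was left out. The median change of the 7 was -0.07. *GA2OX7* had the lowest change (-2.22) and did not pass (adjusted p = 0.113). It passed with the replicate block within each time point (adjusted p = 0.000805).

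The DELLA proteins restrain growth until gibberellin removes them, and 4 of their genes rose. Among 10 DELLA and perception genes, *RGL3* was at 10.90, 10.76 and 11.21 with picloram and 8.88, 8.99 and 7.98 with DMSO, a change of 2.34 (SE 0.37, adjusted p = 0.00364). *GAI* changed by 1.15, *RGA* by 0.75 and *RGL1* by 0.61, the last losing its call without any 1 sample. The gibberellin receptor *GID1A* was at 13.16, 12.82 and 13.18 with picloram and 13.73, 13.97 and 14.04 with DMSO, and fell by 0.87 (SE 0.16, adjusted p = 0.00737).

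Brassinosteroid signalling genes rose, while its synthesis genes were mixed. Of 14 perception and signalling genes, 5 rose and none fell, with a median change of 0.49. *BEH2*, a homologue of the transcription factor BES1, was at 15.18, 15.28 and 15.21 with picloram and 13.45, 13.26 and 13.67 with DMSO, a change of 1.76 (SE 0.26, adjusted p = 0.00229). The receptor homologue *BRL3* (1.42) and the factors *BEH4* (1.04) and *BZR1* (0.97) rose too. *BRL1*, at 10.07, 9.25 and 9.75 with picloram and 8.86, 7.48 and 8.63 with DMSO, passed with all samples (change 1.36, adjusted p = 0.0468) and failed without any 1 of them. The receptor gene *BRI1* changed by 0.45 (adjusted p = 0.0763). Of 11 synthesis and inactivation genes, the inactivating *BAS1* (0.99) and *SOB7* (0.67) rose and the synthesis genes *CYP90D1* (-1.46) and *DWF4* (-0.58) fell. The first of the repressed pair was at 9.09, 9.03 and 9.30 with picloram and 10.53, 10.37 and 10.91 with DMSO, and it alone among these 4 stayed called whichever sample was left out.

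Of 14 ethylene receptor and signalling genes, 11 rose and none fell, with a median change of 1.08, and between 8 and 10 rose when 1 sample was left out. *ERS2*, an ethylene receptor, was at 13.82, 14.01 and 13.60 with picloram and 10.57, 10.73 and 10.46 with DMSO, a change of 3.23 (SE 0.26, adjusted p = 0.000147). *ETR2* (1.93), *ERS1* (1.48) and *ETR1* (0.86) are receptors as well. *CTR1*, the kinase that holds the pathway off when ethylene is absent, was at 14.46, 14.57 and 14.24 with picloram and 12.98, 13.03 and 13.38 with DMSO, a change of 1.29 (SE 0.25, adjusted p = 0.00813). *EIN2* (1.33), *EIN3* (0.60), *EIL1* (0.71) and *EIL2* (1.95) carry the signal to the nucleus and the promoters, and *EBF2* (1.49) and *EBF1* (0.82) remove EIN3. The group thus held positive and negative members alike.

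Ethylene synthesis rose at several genes. Of 9 ACC synthases, of the rate-limiting step, 3 rose and 1 fell. *ACS8* was at 13.23, 13.27 and 12.98 in picloram-treated hypocotyls and 8.91, 8.25 and 9.05 in DMSO-treated ones, a change of 4.42 (SE 0.64, adjusted p = 0.00229). *ACS5* was at 11.76, 12.05 and 11.59 with picloram and 8.51, 9.05 and 9.04 with DMSO, a change of 2.93 (SE 0.39, adjusted p = 0.00138), and *ACS11* changed by 2.16. *ACS4* was at 12.97, 9.48 and 12.86 with picloram and 10.46, 7.83 and 10.25 with DMSO. Its replicate 2 was the lowest sample of each group, the groups overlapped, and it passed with the replicate block within each time point but not without it (adjusted p = 0.0141 with and 0.19 without it). *ACS6*, a stress-linked member, fell by 0.77 and lost its call without DMSO 1, DMSO 2, picloram 1 or picloram 2. Of 5 loci matched by the names of ACC oxidases, of the last step, *ACO5* (1.49) and *ACO4* (1.32) rose. The locus matched to the name *ACO3*, AT2G05710 (0.84, adjusted p = 0.0691), is an aconitase and not an ACC oxidase.

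Type-A response regulators, early targets and brakes of cytokinin signalling, fell. Of 10, 5 fell and none rose, and the median change was -0.84. *ARR6* was at 8.62, 8.02 and 9.17 with picloram and 11.06, 11.47 and 11.16 with DMSO, a change of -2.63 (SE 0.40, adjusted p = 0.00275). *ARR7* was at 7.60, 8.07 and 8.71 with picloram and 10.44, 10.40 and 9.92 with DMSO, a change of -2.12 (SE 0.42, adjusted p = 0.01). *ARR5* (-1.80), *ARR15* (-1.72) and *ARR9* (-0.98) were the others. The picloram samples of these genes were all below the DMSO samples. Of 23 cytokinin synthesis and breakdown genes, 3 rose and none fell, namely the oxidase *CKX5* (1.83), which degrades cytokinin, and *IPT7* (1.58) and *LOG1* (1.38), which make it. With the replicate block within each time point 6 rose.

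Abscisic acid receptors and their phosphatase partners moved in opposite directions. Of 14 PYR/PYL receptors, 5 fell and none rose. *PYL6* was at 10.40, 10.67 and 10.54 with picloram and 13.41, 13.30 and 13.02 with DMSO, a change of -2.71 (SE 0.22, adjusted p = 0.000155). *PYL4* was at 13.64, 13.65 and 13.76 with picloram and 15.39, 15.50 and 15.42 with DMSO, a change of -1.75 (SE 0.13, adjusted p = 0.000113). *PYL8* (-1.21), *PYR1* (-0.93) and *PYL1* (-0.68) were the others. Of 9 clade A protein phosphatases 2C, which the hormone-bound receptors inhibit, 5 rose and none fell, with a median change of 1.09. *ABI1* was at 14.31, 14.23 and 14.43 with picloram and 12.56, 12.58 and 12.37 with DMSO, a change of 1.82 (SE 0.19, adjusted p = 0.000433). *HAI2* (1.93), *HAI1* (1.65), *ABI2* (1.61) and *HAB1* (1.09) were the others. Of the members called, *HAI1* lost its call without DMSO 1, DMSO 2 or any 1 picloram sample.

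Of 12 JAZ repressors of jasmonate signalling, 3 fell and 1 rose, and the median change was -0.70. *JAZ9* was at 11.77, 11.78 and 11.86 with picloram and 13.59, 13.35 and 12.96 with DMSO, a change of -1.50 (SE 0.26, adjusted p = 0.00568). *JAZ7* (-1.95) and *JAZ4* (-1.0) fell with it, and *JAZ3* rose by 1.39. Without DMSO 2 or without picloram 2, 1 member passed as repressed, and 7 members fell with the replicate block within each time point.

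Wall-loosening families changed at single members. Of 34 expansins, which loosen walls at acid pH, 5 rose and 1 fell, with a median change of 0.07. *EXPA12* was at 11.08, 10.96 and 11.35 in picloram-treated hypocotyls and 8.99, 8.87 and 9.24 in DMSO-treated ones, a change of 2.10 (SE 0.32, adjusted p = 0.00314). *EXPA20* (0.78), *EXLA1* (0.78), *EXPA8* (0.73) and *EXPA10* (0.70) rose by less, and *EXPA5* fell by 0.74. *EXPA12* alone stayed called whichever sample was left out, with 1 member up without DMSO 1, 2 without picloram 1 or picloram 2 and 3 without DMSO 2. *EXPA1* was at 14.50, 14.43 and 14.27 with picloram and 13.28, 13.53 and 13.43 with DMSO, and its change of 0.99 did not pass (adjusted p = 0.0616). It passed in 8 alternatives, among them the replicate block within each time point (adjusted p = 0.00519), where 8 expansins rose and 2 fell.

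Of 33 xyloglucan endotransglucosylase/hydrolases (XTHs), which cut and rejoin wall xyloglucan, 1 rose and 1 fell. *XTH9* was at 13.75, 13.66 and 13.90 with picloram and 14.99, 15.05 and 15 with DMSO, a fall of 1.24 on the log2 scale (SE 0.18, adjusted p = 0.00235). *XTH8* rose by 0.70 (adjusted p = 0.0435) and failed without any 1 sample. *XTH16* was at 10.65, 14.31 and 14.64 with picloram and 10.74, 14.66 and 14.62 with DMSO. Its replicate 1 was low in both treatments, and its change of -0.14 became 0.52 without DMSO 2, 0.50 without DMSO 3 and 1.14 without picloram 1. With the replicate block within each time point, 4 XTHs rose and 3 fell.

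A pattern like that of *XTH16* was found in further transcripts. The picloram and DMSO samples of number 1 both lay at least 2 log2 units below all 4 others in 41 transcripts, those of number 2 in 104 and those of number 3 in 57, and those of number 3 lay above in 25. None of these transcripts passed the test, but the choice makes both groups overlap and spread widely, so nothing is read from this.

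Of 11 primary-wall cellulose synthesis genes, 3 rose and none fell. *CSI1*, which links cellulose synthase to microtubules, was at 14.69, 14.88 and 14.58 with picloram and 12.97, 12.86 and 13.18 with DMSO, a change of 1.71 (SE 0.22, adjusted p = 0.00115). The catalytic subunits *CESA1* (0.81) and *CESA3* (0.70) rose, each losing the call without DMSO 2 or picloram 2. Of 17 secondary-wall genes none rose, and the glucuronoxylan gene *FRA8* fell by 0.95. With the block 3 of them rose, namely the cellulose synthase subunits *CESA7* (0.80, adjusted p = 0.0318 with the block and 0.0951 without) and *CESA8* (0.67, adjusted p = 0.0421 and 0.156) and the laccase *LAC17* (0.63, adjusted p = 0.025 and 0.2). No member of the 11 plasma membrane proton pumps or the 22 aquaporins passed, but the pump *AHA5* (0.68) did with the block (adjusted p = 0.0388 with and 0.271 without it). *AHA2*, a main pump of the hypocotyl, was at 15.57, 15.60 and 15.50 with picloram and 14.76, 15.15 and 15.35 with DMSO (change 0.47, adjusted p = 0.115). Of 29 wax and cutin genes, the fatty acid elongation enzymes *KCS1* (0.98) and *KCS20* (0.69) and the acyltransferase *GPAT8* (0.62) rose and *KCS9* (-0.68) fell, the last losing its call without any sample but picloram 3, and 7 rose with the replicate block within each time point.

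Of 10 genes of the ARGOS, LONGIFOLIA and BREVIS RADIX families, known from organ size and cell shape, 6 rose and none fell, with a median change of 1.55. *LNG1* (LONGIFOLIA1), which promotes cell elongation, was at 14.85, 14.78 and 14.48 with picloram and 11.74, 11.62 and 12.30 with DMSO, a change of 2.81 (SE 0.35, adjusted p = 0.0011). *OSR1* was at 13.88, 13.83 and 13.81 with picloram and 11.30, 11.14 and 11.22 with DMSO, a change of 2.62 (SE 0.23, adjusted p = 0.000268). *LNG2* (2.34), *ARGOS* (1.81), *ARL* (1.68) and *BRX* (1.42) also rose. Of 10 further genes that the study names, 7 rose and none fell, among them *SOM*, the cellulose synthase-like *CSLD3* (1.45) and the F-box gene *AUF1* (1.07). The study chose these genes in part on these samples, so their count is not independent evidence of a direction.

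Light-signalling genes moved in both directions. Of 35 BBX and light regulators, 4 rose and 5 fell. *PKS4*, of phototropic signalling, was at 13.91, 13.98 and 13.54 in picloram-treated hypocotyls and 11.55, 11.78 and 11.16 in DMSO-treated ones, a change of 2.31 (SE 0.39, adjusted p = 0.00481). The blue light receptor *PHOT1* (1.44) and its partner *NPH3* (1.41) rose with it. *BBX14*, a B-box zinc finger factor, was at 10.17, 10.02 and 10.13 with picloram and 12.47, 12.39 and 12.06 with DMSO, a change of -2.20 (SE 0.25, adjusted p = 0.000739). *BBX19* (-1.22), *BBX15* (-1.19) and *BBX18* (-1.12) also fell, as did *PKS1* (-0.58), with 2 members passing as repressed without picloram 1 and 3 without any 1 DMSO sample or picloram 2. Of 25 clock genes, *FKF1* (1.12), *TOC1* (0.87) and *GI* (0.57) rose and *RVE7* (-0.97) fell. None of the 3 rises held without any 1 of DMSO 1, DMSO 2, DMSO 3, picloram 1 or picloram 2, and with the block 5 clock genes rose and 2 fell.

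Sugar-related genes included some large changes. *TPPB*, a trehalose-6-phosphate phosphatase, was at 9.13, 9.21 and 9.26 with picloram and 11.47, 11.70 and 11.76 with DMSO, a change of -2.44 (SE 0.22, adjusted p = 0.000274). Of the 10 such phosphatases, *TPPJ* (1.83) and *TPPG* (0.97) rose. Among 20 genes listed here as sugar-starvation markers 3 rose and 2 fell. *TPS11*, of the trehalose pathway, was at 14.19, 14.44 and 14.05 with picloram and 11.74, 12.01 and 11.95 with DMSO, a change of 2.33 (SE 0.20, adjusted p = 0.000199). *ASN2*, an asparagine synthetase, was at 12.63, 12.73 and 12.62 with picloram and 15.12, 14.82 and 14.60 with DMSO, a change of -2.18 (SE 0.17, adjusted p = 0.000113). *STP1* (0.75) and *EXL2* (0.68) rose and *ASN3* (-1.02) fell. *ASN1*, also called *DIN6*, had a change of 1.155 and did not pass (adjusted p = 0.0749). It passed with the replicate block within each time point (adjusted p = 0.0155). So the listed genes that fell do not stand for the whole list. Only 1 listed gene passed as induced without any 1 of the DMSO samples, picloram 1 or picloram 2.

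Glutathione transferase genes were called more often as repressed than as induced, and photosynthesis genes were called rarely. Touch and wound genes were 8.7% induced and 13% repressed, and cell cycle genes 3.33% and 10%, beside 5.53% and 5.84% over all transcripts. Both repressed shares were above that of all transcripts, each resting on 3 members. Of 41 glutathione transferases, 3 rose and 7 fell (17.1%, beside 5.84%), with *GSTU12* (1.65) the most raised and *GSTF11* (-1.49) the most lowered. Between 3 and 6 members passed as repressed when 1 sample was left out, with 3 without DMSO 1, picloram 1 or picloram 2, and 3 with medians subtracted. None passed as induced without DMSO 2 and 1 or 2 did without another sample, and *GSTF10* (-0.56, adjusted p = 0.0491) was lost with the replicate block within each time point (adjusted p = 0.0616). Of 23 touch and wound genes, the calmodulin-related *TCH1* (0.60) and *TCH3* (0.57) rose, losing the call without any 1 sample, and *WRKY18* (-2.05), *CML38* (-1.36) and *ERF104* (-1.34) fell. *WRKY18* was at 11.51, 11.46 and 11.92 with picloram and 13.81, 13.69 and 13.54 with DMSO (SE 0.36, adjusted p = 0.0059). With the replicate block within each time point 8 fell. Of 53 light-harvesting and photosystem genes only *Lhca6* passed (-1.26), and of 30 cell cycle genes *CYCA2;3* (1.16) rose and the inhibitors *KRP5* (-1.50) and *KRP2* (-0.95) and the cyclin *CYCD3;2* (-0.65) fell. None of these 3 falls held without DMSO 2, 1 cell cycle gene passed as repressed without DMSO 1 or without picloram 2, and 5 did with the block. No heat shock gene of 13 and no common reference gene of 12 passed, though with the block *HSP101* rose (0.61, adjusted p = 0.0282) and *HSFB1* fell (-0.56, adjusted p = 0.0443), the reference genes having a median change of 0.08 and *TUB3* the widest change (0.51, adjusted p = 0.0962).

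The 30 min samples show how much of the 2 h response was present earlier, with the same dyes in the same order. At 30 min 63 transcripts were called in either direction, 0.208% of those tested. Of the 1678 transcripts induced at 2 h, 42 were induced at 30 min, and the median 30 min change of the 1678 was 0.03. Of the 1772 repressed at 2 h, 7 were repressed at 30 min, and their median 30 min change was -0.08. A test of the difference between the 2 h and 30 min changes called 257 transcripts, 0.846%, of which 124 were induced and 126 repressed at 2 h.

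Many *SAUR* genes were already higher at 30 min. There 25 of the 79 members rose, and the median change was 0.56, beside 33 members and 0.44 at 2 h. *SAUR34* changed by 3.12 at 2 h and 0.22 at 30 min (adjusted p of the difference 0.00844), and *SAUR35* and the locus AT5G01830 (*SAUR21* in the reference, as is AT5G18030) were also larger at 2 h. *SAUR14* ran the other way, with 0.52 at 2 h and 2.09 at 30 min (adjusted p = 0.048). The remaining *SAUR* genes did not pass this test.

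Of the 14 ethylene receptor and signalling genes, 11 were called at 2 h and none at 30 min. The difference passed for *ERS2* (3.23 at 2 h and -0.07 at 30 min), *ERS1* (1.48 and -0.19) and *EIL2* (1.95 and 0.25). It passed also for the transport genes *PIN3* (2.21 and 0.39), *PIN4* (1.3 and 0.08) and *D6PKL3* (1.60 and -0.004), and for the phosphatases *ABI1* (1.82 and -0.002) and *ABI2* (1.61 and -0.01). Among repressed genes it passed for *PYL6* (-2.71 and 0.05), *PYL4* (-1.75 and -0.001), *PYR1* (-0.93 and 0.20), *XTH9* (-1.24 and 0.43) and *ASN2* (-2.18 and -0.38). *CSI1*, *OSR1*, *JAZ3*, *TPPG*, *TPS11*, *SOM* and *GH3.1* were the other listed members whose change was larger at 2 h.

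The single-colour experiment gives the same treatment and time without amplification and with 1 dye, normalised on its own, so its values stand beside the others without a test between them. It called 804 of 37118 transcripts in either direction, 2.17%. Of the 1666 induced transcripts with a value there, 79.7% changed in the same direction, 198 were called in that direction and 1 in the opposite one. Of the 1765 repressed transcripts with a value there, 62.3% changed in the same direction, 59 were called in it and 9 in the opposite one. The median change of the induced transcripts was 0.28 there, and that of the repressed ones was -0.10. Of all 30197 transcripts with values in both experiments, 520 rose and 145 fell in the single-colour one, where their median change was -0.03. Over these the changes in the 2 experiments had a Pearson correlation of 0.27. The share of all transcripts that changed in the same direction was not computed, so 79.7% and 62.3% have no such share beside them.

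Groups differed in how they stood there. *IAA5* (2.81 in the dual-colour experiment and 2.22 in the single-colour one), *IAA19* (1.79 and 2.28), *GA2OX8* (3.95 and 3.08), *P1R3* (2.48 and 3.35) and *ARR6* (-2.63 and -1.96) were called in both. Of the 29 *Aux/IAA* genes 9 rose in each experiment. Of the 14 ethylene receptor and signalling genes, 11 rose in the dual-colour experiment and 1 in the single-colour one, where the median was 0.11. Of the 9 clade A phosphatases, 5 rose in the dual-colour experiment and none in the single-colour one, where the median was -0.10. Of the 23 touch and wound genes, 2 rose and 3 fell in the dual-colour experiment (median -0.34), and 7 rose and none fell in the single-colour one (median 0.54). Of the XTHs, 1 rose in the dual-colour experiment and 10 in the single-colour one, among them *XTH16* (-0.14 and 2.14). *ACS6* (-0.77 and 0.99) was called in opposite directions. *NCED5* (4.59 and 0.72), *SOM* (3.91 and 0.56), AT3G49980 (3.82 and -0.17) and AT1G23070 (3.79 and -0.08) were among the largest changes of the dual-colour experiment and were not called in the single-colour one.

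**Figure D5:**
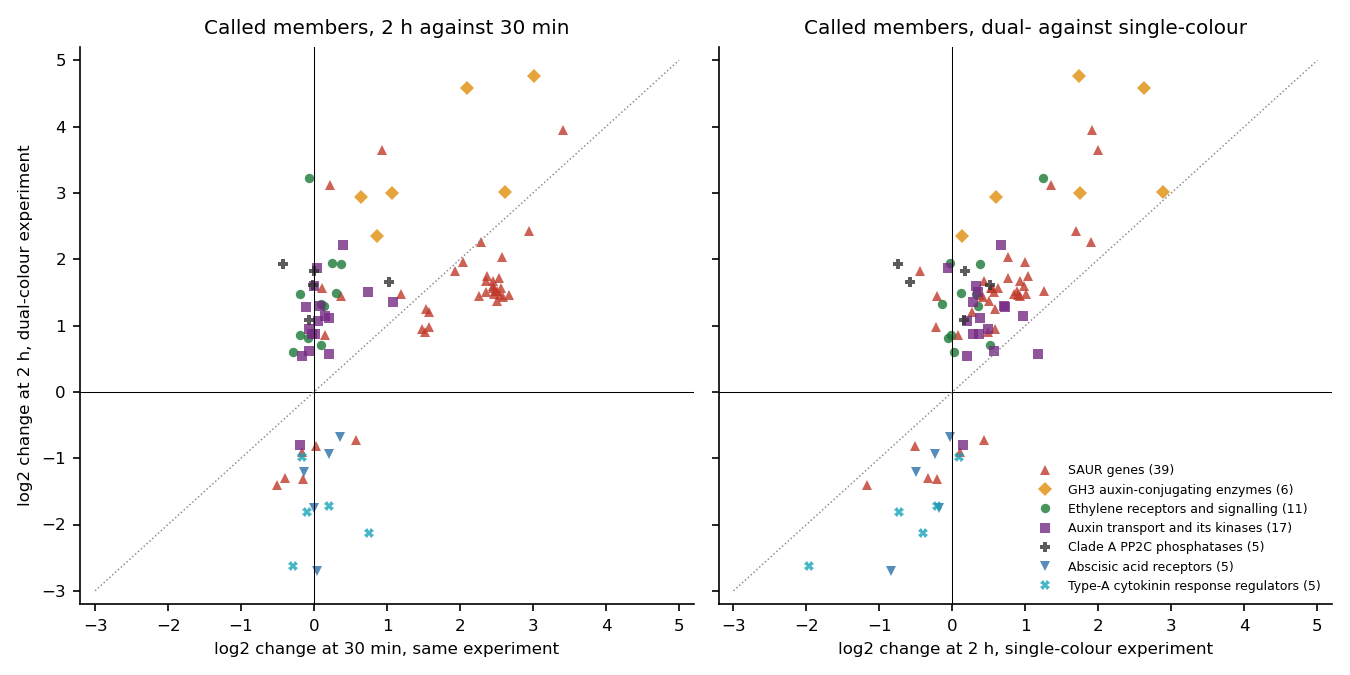
Log2 change, picloram minus DMSO at 2 h in the dual-colour experiment (y axis), of the called members of 7 gene groups, against the change at 30 min on the same chip (left) and at 2 h in the single-colour experiment (right). Each point is 1 gene and the dotted line marks equal changes; the members were chosen by their values on the y axis. The *SAUR* points lie on both sides of the line on the left, and *ERS2* lies at 3.23 against -0.07 (left) and against 1.25 (right).

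Some calls were lost when 1 sample was left out. Fewer samples also lowered the count of calls in all, so a lost call need not rest on 1 library. The gene groups and the 15 largest changes in each direction held 855 loci, of which 244 were called with all samples, and 146 of these stayed called whichever 1 of the 6 samples was left out. The call of 20 was lost whichever sample was left out (adjusted p between 0.0501 and 0.18), among them *BRL1*, *DWF4*, *EXL2*, *EXPA8*, *GA2OX1*, *GA2OX2*, *GA3*, *GSTU12*, *RGL1*, *SAUR78*, *SOB7*, *TCH1*, *TCH3* and *XTH8*. A further 27 lost it for 5 of the 6 samples (0.0502 to 0.178), 21 for 4 (0.0504 to 0.14), 10 for 3 (0.0514 to 0.0831), 10 for 2 (0.0503 to 0.0776) and 10 for 1 (0.052 to 0.0611). Of the 15 most induced and 15 most repressed transcripts, AT1G58460 alone lost its call in this way.

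The replicate block within each time point also moved counts of calls not given with it above. With it 36 *SAUR* genes rose and 8 fell, 13 ethylene receptor and signalling genes rose, 6 class II HD-ZIP genes rose, and 6 brassinosteroid perception and signalling genes rose. It gave 6 type-A response regulators as repressed, and 6 abscisic acid receptors as repressed with 1 induced. Among auxin genes, 2 of synthesis and inactivation rose and 2 of transport fell, and among gibberellin genes 2 of inactivation and 2 of the DELLA and perception group fell. Of the other groups, 5 glutathione transferases rose and 8 fell, and 5 light regulators rose and 6 fell. In the list of sugar-starvation markers 4 genes rose. Falls were also called for 1 bHLH factor, 1 cytokinin synthesis and breakdown gene, and 2 light-harvesting and photosystem genes.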

How the data were processed

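Per the study's methods, the authors normalised the arrays by RMA and analysed each experiment apart with limma. The deposited values of the dual-colour experiment were linear intensities, 1 per transcript and sample, on a chip annotated on TAIR8, and those of the single-colour experiment were on a chip annotated on TAIR10. The medians of the deposited intensities of the dual-colour samples differed by up to 1.72-fold. These values were therefore log2-transformed and quantile-normalised over the 12 samples of that experiment. Those of the single-colour experiment were log2-transformed with no further normalisation. One linear model per experiment was fitted to its 12 samples with no covariate and no filter by lmFit and eBayes of limma (3.58.1, under R 4.3.3), with Benjamini-Hochberg adjustment over all transcripts and a threshold of 0.05. The number of arrays limits the precision. With 3 samples a group, a two-sided exact permutation test cannot go below p = 0.1, so the model across all transcripts was used. Tables were made with Python 3.11.15, and the model code was tested on simulated data.

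Replicate numbers come from the sample titles. Deviations from the group means correlated for same-numbered picloram and DMSO samples (r = 0.336, 0.551 and 0.497 for numbers 1 to 3 at 2 h, and 0.598, 0.462 and 0.367 at 30 min). For differently numbered ones r lay between -0.435 and -0.061 at 2 h and between -0.387 and 0.0298 at 30 min. Deviations cancel within each group, so these lower values are no separate support. The numbers were taken to pair the samples, but the main counts, SEs and adjusted p-values come from the fit without pairing. Counts from a fit with a replicate block within each time point are given for the gene groups where they differed. Gene names come from RefSeq locus tags, which matched 29976 of 30361 loci. The gene lists (42, with 838 loci) and marker lists (10) and the samples described were chosen with earlier results of these data known. Text names the 15 largest changes in each direction with non-overlapping groups, up to 3 called members per list and direction, members that oppose their list, and genes the study names. Other members of a list were named after their values were seen. Alternatives were other normalisations, a filter on dim transcripts, the replicate block, fits to the 6 samples alone, a variance trend, a stricter threshold and each sample left out.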

Additional observations from a re-analysis of the deposited data

Results flagged for a closer look

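Of the 15 most induced and 15 most repressed transcripts at 2 h with non-overlapping groups, 17 differed between time points in the limma test of the difference itself, the log2 change at 2 h minus that at 30 min, which called 0.846% of all transcripts. These 30 were chosen for a large 2 h change, which is 1 term of that difference, so the choice favours a difference and nothing is read from the count. The 2 time points used separate picloram and DMSO samples. The first of the larger changes at 2 h were those of *SOM* (4.06, with 3.91 at 2 h and -0.15 at 30 min, adjusted p = 0.00714), AT3G49980 (3.54, with 3.81 at 2 h and 0.27 at 30 min, adjusted p = 0.0221), AT1G23070 (3.33, with 3.79 at 2 h and 0.46 at 30 min, adjusted p = 0.00898) and *ERS2* (3.3, with 3.23 at 2 h and -0.07 at 30 min, adjusted p = 0.00844). Next came *CYP78A10* (2.94, with 3.71 at 2 h and 0.77 at 30 min, adjusted p = 0.0285), *SAUR35* (AT4G12410) (2.73, with 3.65 at 2 h and 0.92 at 30 min, adjusted p = 0.00714) and *GH3.1* (2.50, with 4.59 at 2 h and 2.09 at 30 min, adjusted p = 0.0414).

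The other 10 fell more at 2 h than at 30 min. They were AT3G01260 (-3.14, with -2.50 at 2 h and 0.64 at 30 min, adjusted p = 0.0364), *ORA59* (-3.05, with -2.52 at 2 h and 0.52 at 30 min, adjusted p = 0.0111), *TINY* (-2.80, with -2.80 at 2 h and 0.002 at 30 min, adjusted p = 0.048) and *PYL6* (-2.75, with -2.71 at 2 h and 0.05 at 30 min, adjusted p = 0.00844), then AT1G47400 (-2.48, with -2.24 at 2 h and 0.24 at 30 min, adjusted p = 0.0444), *AOP2* (-2.32, with -2.93 at 2 h and -0.61 at 30 min, adjusted p = 0.0277) and AT1G72416 (-2.28, with -2.25 at 2 h and 0.03 at 30 min, adjusted p = 0.0126), and last AT4G10600 (-2.16, with -2.18 at 2 h and -0.02 at 30 min, adjusted p = 0.0132), AT5G57510 (-1.98, with -2.54 at 2 h and -0.56 at 30 min, adjusted p = 0.0385) and *GRXS13* (-1.78, with -2.18 at 2 h and -0.41 at 30 min, adjusted p = 0.029). The 30 min change of each of these 10 was not called.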

How the results depend on the processing

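Numbers of calls moved with the processing more than directions did. The 2 h comparison called 3450 transcripts (1678 induced, 1772 repressed). It called 1543 (674 and 869) with no normalisation between arrays, 5716 (2829 and 2887) with a replicate block within each time point, 5894 (2868 and 3026) in a fit to the 6 samples alone with the replicate block, and 1085 (534 and 551) at an adjusted p under 0.01. Leaving out 1 sample gave between 1450 and 2686 calls (699 to 1385 induced, 719 to 1343 repressed). Cyclic loess (3831), the dimmest 25% left out (3883), medians subtracted (3160), quantile normalisation over the 6 samples (4397), the replicate block over all 12 samples (3395), the 6 samples alone (4420) and a variance trend (4190) stayed within 1.5 times. At 30 min the 63 calls (47 induced, 16 repressed) became 0 (0 and 0) in a fit to the 6 samples at 30 min alone and 94 (69 and 25) with the block, and leaving out 1 sample gave 37 to 69 (31 to 55 and 6 to 16). In the single-colour experiment the 804 calls (634 and 170) became 1295 (853 and 442) with the replicate block and 338 to 680 (286 to 583 and 52 to 125) with 1 sample left out. With 1 sample left out, the 2 samples left in a group were taken to vary like the other groups. Of 180 named genes, 2 turned sign when 1 sample was left out, neither being called. The log2 change of PIF1 (AT2G20180) was 0.05 with all samples, -0.051 when DMSO 2 was dropped, -0.03 when picloram 2 was dropped and, at its highest, 0.16 when picloram 3 was dropped. The log2 change of XTH16 (AT3G23730) was -0.14 with all samples, 0.52 when DMSO 2 was dropped, 0.50 when DMSO 3 was dropped, 1.14 when picloram 1 was dropped and, at its lowest, -1.44 when DMSO 1 was dropped. The cause of these shifts was not tested. Bright transcripts were called more often than dim ones, and 50 transcripts exceeded an intensity of 60000 in a sample, 10 of them called. A promoter motif search listed among the alternatives was not run, as no sequence was used here.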
